A study of Homo sapiens with 16 samples.

Results

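This account covers 10 genes of the ATF4 response and of serine synthesis: ATF4, ATF5, TRIB3, SESN2, GDF15, ASNS, PHGDH, PSAT1, PSPH and SHMT2. The genes were chosen with earlier results of these data known, so counts over them describe these samples and are no test of a response. Every probe whose symbol in the platform's probe table is 1 of these names was taken, in all 16 samples. Of the 10 genes, 9 have a probe, among 15240 distinct symbols on the array, and PSPH has none. GDF15 and SHMT2 have 2 probes each, which makes 11 probes in all, and 10 of them were above 0 in every sample and entered the tests.

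The cells were HepG2, an established human liver tumour line, grown without serum. There were 4 groups of 4 biological replicates: elaidic acid at 100 µM for 7 days, oleic acid at 100 µM for 7 days, stearic acid at 100 µM for 7 days, and a control with no fatty acid added. Elaidic and oleic acid are the trans and cis forms of the same monounsaturated fatty acid, and stearic acid is the saturated acid of the same chain length. RNA was measured on 1-colour Cy5 arrays of 30968 probes, and the comparisons ask how each acid differs from no acid and how the 3 acids differ from each other.

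ATF4 is a bZIP transcription factor whose mRNA is translated preferentially when the initiation factor eIF2 is phosphorylated, as happens when amino acids run short or when unfolded proteins load the endoplasmic reticulum. It then raises transcription of genes for amino acid synthesis, amino acid transport and aminoacyl-tRNA synthetases, through composite elements that it binds together with C/EBP proteins. Serine synthesis from a glycolytic intermediate is among its known outputs: PHGDH, PSAT1 and PSPH catalyse the successive steps, and SHMT2 moves a carbon unit from serine to folate in mitochondria. Since ATF4 is controlled largely at translation, its mRNA level and the mRNA levels of its targets are different readouts.

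Promoter sequences are shown for ASNS, PHGDH, PSAT1 and TRIB3, so that any match to the composite element or to a CCAAT box (the site of the factor NF-Y) can be read in place. No window shown holds both. They are the 250 bases before the annotated transcription start in RefSeq (GRCh38.p14), written 5′ to 3′ on the gene's own strand, with motif matches in capitals. ASNS lies at chr7:97872409-97872658 on the minus strand, and PHGDH at chr1:119711684-119711933, PSAT1 at chr9:78296875-78297124 and TRIB3 at chr20:381045-381294 on the plus strand.
ASNS: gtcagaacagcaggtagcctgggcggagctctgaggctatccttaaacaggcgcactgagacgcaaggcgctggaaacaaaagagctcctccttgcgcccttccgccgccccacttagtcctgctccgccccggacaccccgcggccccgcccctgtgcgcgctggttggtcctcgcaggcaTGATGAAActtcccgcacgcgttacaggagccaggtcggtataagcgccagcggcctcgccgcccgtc
PHGDH: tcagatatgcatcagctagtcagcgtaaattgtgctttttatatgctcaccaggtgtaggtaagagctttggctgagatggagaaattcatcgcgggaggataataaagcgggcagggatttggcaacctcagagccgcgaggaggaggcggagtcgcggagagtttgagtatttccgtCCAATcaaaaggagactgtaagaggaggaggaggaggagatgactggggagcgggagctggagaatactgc
PSAT1: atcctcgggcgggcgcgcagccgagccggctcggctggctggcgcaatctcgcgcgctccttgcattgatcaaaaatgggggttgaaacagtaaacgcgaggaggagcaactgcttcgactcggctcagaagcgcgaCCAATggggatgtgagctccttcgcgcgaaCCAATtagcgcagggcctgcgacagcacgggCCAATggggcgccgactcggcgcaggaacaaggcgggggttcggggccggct
TRIB3: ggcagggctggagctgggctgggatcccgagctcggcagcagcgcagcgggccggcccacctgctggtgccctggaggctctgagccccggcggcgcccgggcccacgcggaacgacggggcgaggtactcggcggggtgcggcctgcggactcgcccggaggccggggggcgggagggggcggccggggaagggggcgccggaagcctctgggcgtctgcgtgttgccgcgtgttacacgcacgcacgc
The composite element was searched as TGATGNAA on both strands and occurred in 1 of the 8 genes that matched the RefSeq table, ASNS, as TGATGAAA at positions -68 to -61 from the start. Some genes have several windows, and by window it was in 1 of their 14. It occurs in 3.14% of the 35116 promoter windows of the same length in that table. CCAAT, searched on both strands, occurred in 4 of the 14 windows, 3 times in PSAT1, 2 times in SESN2 and 1 time each in PHGDH and GDF15, while 32.0% of all windows hold it. No match overlapped another, ATF4, ATF5 and TRIB3 had neither motif in any of their windows, and SHMT2 and PSPH were not among the genes matched.

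The arrays differed in brightness and in series, and both bear on what follows. Median deposited intensity ran from 25.5 to 57.8 in elaidic acid samples, from 20.7 to 49.4 in oleic acid samples, from 45.8 to 76.1 in stearic acid samples and from 19.95 to 72.8 in control samples. By array number, as the labels give it, the arrays form 2 sets, termed slide series A and B. The first holds elaidic acid replicates 2 and 4, all oleic acid samples and all control samples (10 samples), and the other holds elaidic acid replicates 1 and 3 and all stearic acid samples (6 samples). Levels below are quantile normalised log2 intensities of 1 probe, which cannot be compared between probes, and a call means an adjusted p under 0.05 (Benjamini-Hochberg, over 22939 probes). The number of arrays limits the precision, and the p-values weigh each difference against the spread between these samples. In bulk RNA fewer cells of a kind and less RNA per cell cannot be told apart. Of the 12 hepatocyte markers examined, 10 are on the array and none was under an intensity of 100 in all samples. Of the 15 markers of other cell types, 13 are on the array, 8 of which were under 100 in all samples.

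**Figure D1:**
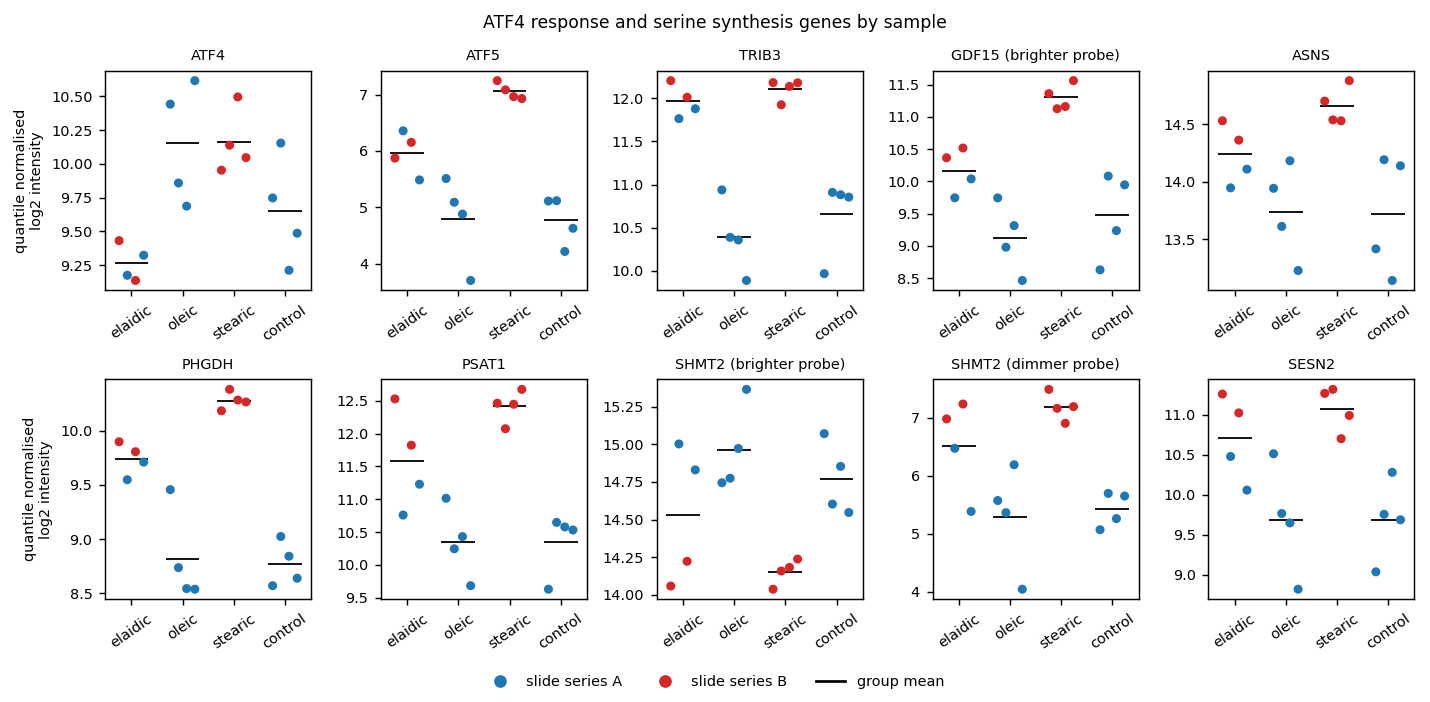
Quantile normalised log2 intensity of the 10 tested probes in each sample, with elaidic, oleic, stearic acid and control from left to right, points coloured by slide series and bars at the group means. The TRIB3 points of elaidic acid (11.76 to 12.20) and stearic acid (11.92 to 12.18) sit above all oleic acid and control points. The ATF4 points of elaidic acid (9.14 to 9.43) sit below all oleic and stearic acid points and overlap control.

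After elaidic acid, TRIB3 was 2.48-fold higher than in control cells and was the only member that passed the test. Another 7 probes lay 1.43- to 2.36-fold higher without passing, and the ATF4 probe and the brighter SHMT2 probe lay lower, also without passing. The median change of the 10 probes was 0.99 on the log2 scale, against -0.10 for all 22939 probes, with 8 of 10 higher. That 1 of 10 compares with 0.305% of all probes called higher in this comparison. At an unadjusted p under 0.05 there were 6 of the 10 members and 3283 probes in all.

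TRIB3 (probe PH_hs_0023894) encodes a pseudokinase that binds AKT and ATF4 and is itself an ATF4 target. Its level was 12.20, 11.76, 12.01 and 11.88 in elaidic acid replicates 1 to 4, 10.94, 10.39, 10.36 and 9.89 in oleic acid, 12.18, 11.92, 12.14 and 12.18 in stearic acid, and 9.97, 10.91, 10.88 and 10.85 in control. All elaidic and stearic acid samples lay above all oleic acid and control samples, and control replicate 1 and oleic acid replicate 4, the dimmest arrays, were the lowest. Elaidic acid exceeded control by 1.31 ± 0.26 (log2, SE) with an adjusted p of 0.0426. The call did not hold when any 1 of the 8 samples was left out, where the change was 1.08 to 1.40 and the adjusted p 0.0566 to 0.168. With slide series as a block, which makes it a comparison within series A, the change was 1.17 ± 0.31 and the adjusted p 0.302. Over the 18 alternatives run, the adjusted p ranged from 0.00971 to 0.947.

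In group means TRIB3 stood at 11.96 ± 0.19 in elaidic acid, 10.39 ± 0.43 in oleic acid, 12.10 ± 0.12 in stearic acid and 10.65 ± 0.46 in control (SD, n = 4 each). Stearic and elaidic acid are neighbours in this order, with a difference of -0.14 for elaidic minus stearic acid (95% interval -0.69 to 0.41). Oleic acid and control are neighbours at the low end, with -0.26 for oleic acid minus control (95% interval -0.81 to 0.29).

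SESN2 (PH_hs_0000852), a sestrin that binds leucine and restrains mTORC1, varied more within its groups. It averaged 10.71 ± 0.54 in elaidic acid, 9.69 ± 0.70 in oleic acid, 11.07 ± 0.28 in stearic acid and 9.69 ± 0.51 in control (SD, n = 4 each). The elaidic acid values of series B, 11.26 and 11.03, lay among those of stearic acid, and those of series A, 10.48 and 10.06, overlapped those of control. The change against control was 1.02 ± 0.36 with an adjusted p of 0.241, and it was 0.58 ± 0.41 with the series block.

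GDF15, a secreted cytokine of the TGF-beta family that signals through the GFRAL receptor, has probes that behaved differently. Its brighter probe (PH_hs_0035765) read 10.37, 9.75, 10.52 and 10.04 in elaidic acid replicates 1 to 4, 9.74, 8.98, 9.31 and 8.46 in oleic acid, 11.36, 11.13, 11.16 and 11.56 in stearic acid, and 8.63, 10.08, 9.24 and 9.95 in control. Stearic acid stood above every other sample. The lowest elaidic acid sample stood only just above the highest oleic acid sample, and elaidic acid overlapped control. The change of elaidic acid against control was 0.69 ± 0.34 (adjusted p = 0.357), and against oleic acid 1.04 ± 0.34 (adjusted p = 0.171).

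The dimmer GDF15 probe (PH_hs_0027358) divided the samples by slide series. Its deposited intensities were 1093, -4.02, 1045 and 0.05 in elaidic acid replicates 1 to 4, -3.57 to 4.80 in oleic acid, 701.4 to 1210 in stearic acid and -14.0 to -2.47 in control. All 10 samples of series A were under 10 and all 6 of series B above 500, limits that were chosen after seeing this probe. That pattern was found in 11 of the 30968 probes, with the reverse in 1 probe. The dimmer GDF15 probe was not tested with the others. With 50 added before the log, elaidic acid exceeded control by 2.28 and stearic acid exceeded control by 4.11, and these became 0.21 and -0.04 once series was a block, beside a series term of 4.15 ± 0.16. No direction is drawn for GDF15 from this probe.

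**Figure D2:**
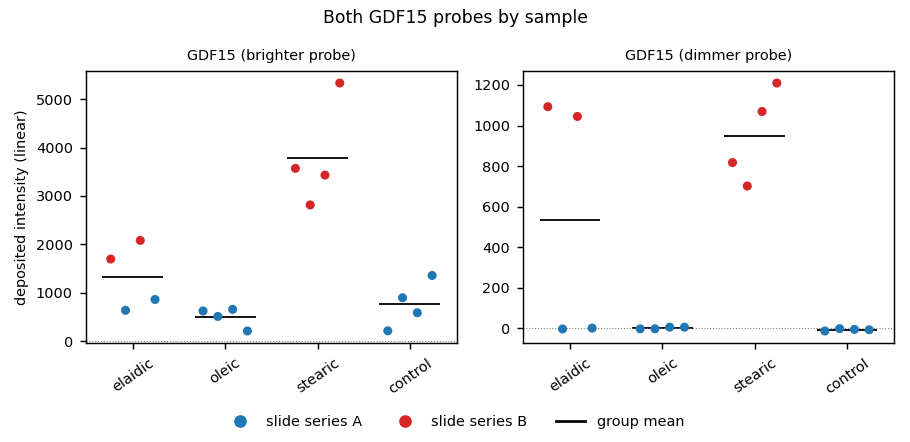
Deposited linear intensity of both GDF15 probes in each sample, with elaidic, oleic, stearic acid and control from left to right, points coloured by slide series and bars at the group means. The brighter probe runs from 212.6 to 5333 over all samples, whereas the dimmer probe reads under 10 in all 10 series A samples and above 500 in all 6 series B samples.

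ASNS, asparagine synthetase, has the TGATGAAA match shown above and was already bright in every sample. It averaged 14.24 ± 0.26 in elaidic acid, 13.74 ± 0.41 in oleic acid, 14.66 ± 0.16 in stearic acid and 13.72 ± 0.52 in control (PH_hs_0026107, SD, n = 4 each). All stearic acid samples, from 14.53 to 14.88, and the elaidic acid samples of series B, at 14.53 and 14.36, lay above all controls, whose highest was 14.19. The elaidic acid samples of series A, at 13.95 and 14.11, lay within the control range. The elaidic acid change was 0.51 ± 0.28 with an adjusted p of 0.397.

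The transcription factors differed in sign after elaidic acid, without passing. ATF5 (PH_hs_0001010), a bZIP factor with the same translational control, read 5.87, 6.36, 6.15 and 5.49 in elaidic acid replicates 1 to 4, 5.51, 5.09, 4.88 and 3.70 in oleic acid, 7.25, 7.09, 6.97 and 6.93 in stearic acid, and 5.11, 5.12, 4.22 and 4.63 in control. Each elaidic acid sample was above each control sample and below each stearic acid sample. The change against control was 1.20 ± 0.34 with an adjusted p of 0.156, and 1.15 ± 0.43 with the series block. ATF5 was among the dimmer probes, with intensities of 8.35 to 199.4 over all samples.

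ATF4 (PH_hs_0027945) read 9.43, 9.18, 9.14 and 9.32 in elaidic acid replicates 1 to 4, 10.44, 9.86, 9.69 and 10.62 in oleic acid, 9.95, 10.14, 10.49 and 10.05 in stearic acid, and 9.75, 10.15, 9.21 and 9.49 in control. Every elaidic acid sample was lower than every oleic and stearic acid sample, and the elaidic acid range overlapped control. The elaidic acid change was -0.38 ± 0.26 against control (adjusted p = 0.481), and -0.40 ± 0.32 with the series block. The elaidic acid samples with high TRIB3 mRNA did not have high ATF4 mRNA.

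Of the serine synthesis enzymes, PHGDH, which catalyses the first and committed step, separated the groups without overlap except for oleic acid and control. Its probe (PH_hs_0000404) read 9.90, 9.55, 9.81 and 9.71 in elaidic acid replicates 1 to 4, 9.46, 8.74, 8.55 and 8.54 in oleic acid, 10.18, 10.38, 10.28 and 10.26 in stearic acid, and 8.57, 9.02, 8.84 and 8.64 in control. The elaidic acid samples lay between stearic acid above and both oleic acid and control below. The change against control was 0.97 ± 0.22, or 1.96-fold, with an adjusted p of 0.0840, and it passed in 2 of the 18 alternatives. With the series block it was 0.86 ± 0.26 with an adjusted p of 0.422, in a range of 0.0174 to 1.00 over the alternatives.

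PSAT1, the transaminase of the next step, differed between series within elaidic acid. Its levels (PH_hs_0014797) were 12.53, 10.76, 11.82 and 11.23 in elaidic acid replicates 1 to 4, 11.02, 10.25, 10.43 and 9.68 in oleic acid, 12.46, 12.07, 12.45 and 12.67 in stearic acid, and 9.63, 10.65, 10.58 and 10.53 in control. Series B gave the higher pair of elaidic acid values, 1 of which lay in the stearic acid range. The series A pair, at 10.76 and 11.23, stood above the highest control, at 10.65. The change against control was 1.24 ± 0.37 (adjusted p = 0.175) over both series and 0.65 ± 0.38 (adjusted p = 0.873) within series A.

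The SHMT2 probes had opposite signs after elaidic and stearic acid. The dimmer probe (PH_hs_0004269) averaged 6.52 ± 0.82 in elaidic acid, 5.29 ± 0.90 in oleic acid, 7.19 ± 0.24 in stearic acid and 5.42 ± 0.30 in control. The brighter probe (PH_hs_0031312), at deposited intensities of 19164 to 31545, averaged 14.53 ± 0.46 in elaidic acid, 14.96 ± 0.29 in oleic acid, 14.15 ± 0.08 in stearic acid and 14.77 ± 0.24 in control (SD, n = 4 each). Their elaidic acid changes against control were 1.10 ± 0.43 (adjusted p = 0.275) and -0.24 ± 0.24 (adjusted p = 0.615), and with the series block 0.51 ± 0.46 and 0.15 ± 0.24. The deposited intensity of the brighter probe was nearly flat, at 25292 ± 2739 in elaidic acid, 25915 ± 4792 in oleic acid, 26982 ± 3486 in stearic acid and 23578 ± 4446 in control (SD, n = 4 each), and its direction against control turned without normalisation, to 0.11. No direction is drawn for SHMT2.

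The series block lowered the positive changes and turned the sign of the brighter SHMT2 probe. Within series A, 9 of the 10 probes were higher in elaidic acid than in control, with a median of 0.54 against 0.02 for all probes, and none was called, against 0.0392% of all probes. At an unadjusted p under 0.05 there were 3 of 10 members, TRIB3, PHGDH and ATF5, and 1497 of all probes. Both elaidic acid samples of series A lay above all 4 controls for ATF5, TRIB3, PHGDH and PSAT1, which is 4 of 10 against 7.17% of all probes. For TRIB3 and PHGDH they also lay above all oleic acid samples, which is 2 of 10 against 3.09% of all probes. Over both series, all 4 elaidic acid samples were above all controls for the same 4 genes, against 3.82% of all probes.

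Series B minus series A, estimated within elaidic acid, was positive for 9 of the 10 probes with a median of 0.35, against -0.13 for all probes. None of the 10 was called, against 4.05% of all probes, and 3 of 10 were under an unadjusted p of 0.05, against 6419 of all probes. The largest terms were 1.18 ± 0.44 for PSAT1, 1.18 ± 0.54 for the dimmer SHMT2 probe, 0.87 ± 0.47 for SESN2 and -0.78 ± 0.27 for the brighter SHMT2 probe. TRIB3, PHGDH, ATF5 and ATF4 had terms of 0.29 ± 0.36, 0.22 ± 0.31, 0.09 ± 0.49 and 0.03 ± 0.37. The part of series in each elaidic acid change over both series was not tested beyond the block.

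**Figure D3:**
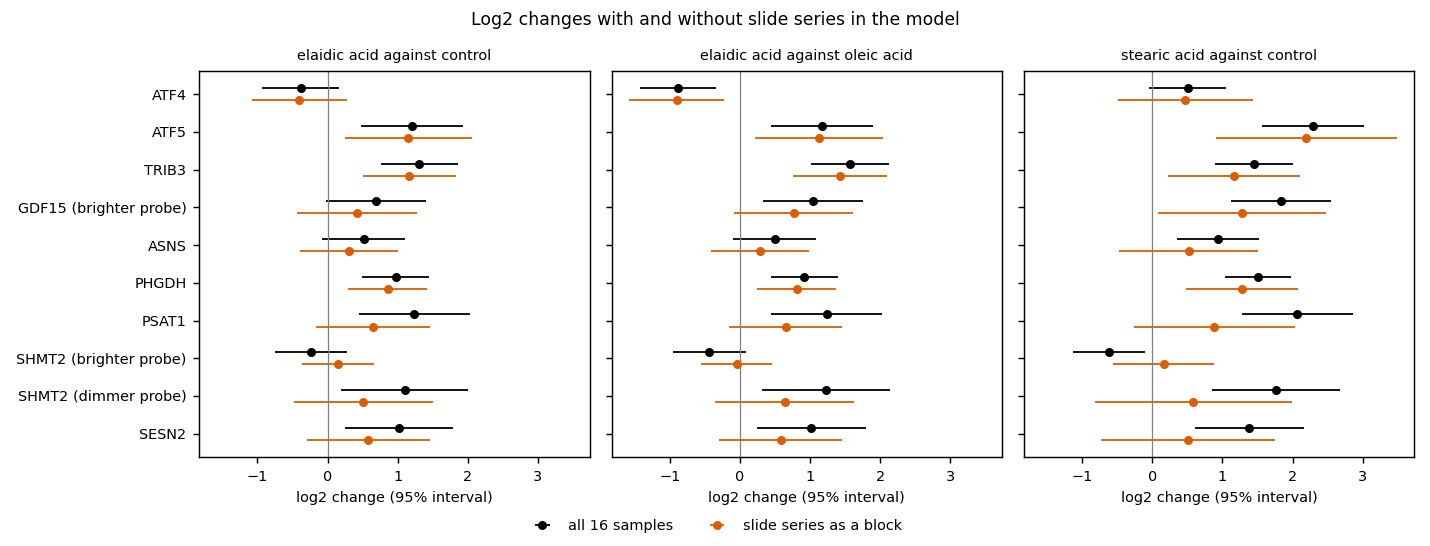
Log2 change with its 95% interval for the 10 tested probes in 3 comparisons, from all 16 samples (black) and with slide series as a block (orange). TRIB3 after elaidic acid is at 1.31 and 1.17 against control, whereas the stearic acid changes of PSAT1, the dimmer SHMT2 probe and SESN2 shrink under the block.

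Between the isomers, TRIB3 was again the member that passed: its level was 2.97-fold higher in elaidic than in oleic acid, at 1.57 ± 0.26 (adjusted p = 0.0194). All 4 elaidic acid samples exceeded all 4 oleic acid samples. That 1 of 10 compares with 0.301% of all probes called higher, and at an unadjusted p under 0.05 there were 8 of 10 members and 4342 probes in all. Within series A the TRIB3 difference was 1.43 ± 0.31, with an adjusted p of 0.213, in a range of 0.00394 to 0.939 over the alternatives. Leaving out elaidic acid replicate 1 or 3, or oleic acid replicate 2, 3 or 4, took the adjusted p above the threshold, to 0.0501 to 0.0849, and without oleic acid replicate 1 PHGDH passed too.

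PHGDH, TRIB3 and the brighter GDF15 probe had no overlap between elaidic and oleic acid, with elaidic acid above, which is 3 of 10 against 4.07% of all probes. For GDF15 this was nearly a tie, with the lowest elaidic acid sample at 9.7458 and the highest oleic acid sample at 9.7446. PHGDH differed by 0.92 ± 0.22 (adjusted p = 0.103), PSAT1 by 1.24 ± 0.37 (adjusted p = 0.157), ATF5 by 1.17 ± 0.34 (adjusted p = 0.151), SESN2 by 1.02 ± 0.36 (adjusted p = 0.195) and the dimmer SHMT2 probe by 1.23 ± 0.43 (adjusted p = 0.189). ATF4 went the other way, at -0.88 ± 0.26 (adjusted p = 0.151, 95% interval -1.43 to -0.34), with all elaidic acid samples below all oleic acid samples. ASNS differed by 0.49 (95% interval -0.09 to 1.08) and the brighter SHMT2 probe by -0.44 (95% interval -0.95 to 0.08). With the series block none of the 10 was called, against 0.0218% of all probes, and 4 of 10 members and 1341 of all probes were under an unadjusted p of 0.05.

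Oleic acid against control showed no called member, and no probe of the array was called (0% of 22939). At an unadjusted p under 0.05 there were 0 of the 10 members and 602 of all probes. The changes ran from -0.35 ± 0.34 for the brighter GDF15 probe to 0.50 ± 0.26 for ATF4, with 5 higher and 5 lower. The 95% interval was -0.81 to 0.29 for TRIB3, -0.42 to 0.52 for PHGDH, -0.79 to 0.79 for PSAT1 and -0.70 to 0.75 for ATF5. Changes within these intervals remain compatible with these arrays, so the lack of a call does not show equal levels.

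Stearic acid gave the highest group mean for every tested probe except the brighter SHMT2 probe. For ATF4 this was nearly a tie, at 10.158 in stearic acid and 10.150 in oleic acid. Against control, 8 of the 10 probes rose past the threshold, against 15.0% of all probes called higher, and every stearic acid sample was above every control for these 8, against 18.7% of all probes. ATF5 rose by 2.29 ± 0.34 (4.89-fold, adjusted p = 0.000983), PSAT1 by 2.07 ± 0.37 (4.19-fold, adjusted p = 0.00224), and the brighter GDF15 probe by 1.83 ± 0.34 (3.56-fold, adjusted p = 0.00239). The dimmer SHMT2 probe rose by 1.77 ± 0.43, PHGDH by 1.51 ± 0.22, TRIB3 by 1.45 ± 0.26, SESN2 by 1.38 ± 0.36 and ASNS by 0.94 ± 0.28, with adjusted p from 0.000971 to 0.0221. ATF4 had a change of 0.51 ± 0.26 (adjusted p = 0.134), and the brighter SHMT2 probe -0.62 ± 0.24 (adjusted p = 0.0639).

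Stearic acid and control share no slide series, so that for them treatment and series cannot be told apart except through the elaidic acid samples. With series as a block, 0 of the 10 were called and no probe of the array was (0%), while 4 of 10 members and 1710 of all probes were under an unadjusted p of 0.05. The blocked changes were 2.20 ± 0.60 for ATF5, 1.28 ± 0.37 for PHGDH, 1.28 ± 0.56 for GDF15 and 1.16 ± 0.44 for TRIB3, and from 0.16 to 0.89 for the other 6 probes. The block moved PSAT1 to 0.89 ± 0.54, the dimmer SHMT2 probe to 0.59 ± 0.66, SESN2 to 0.51 ± 0.58 and ASNS to 0.52 ± 0.46, and turned the brighter SHMT2 probe to 0.16 ± 0.34. Without control replicate 1 or 3, or stearic acid replicate 1 or 4, ASNS was not called. Without normalisation ATF4 passed, at 1.22, beside a median of 0.26 for all probes.

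Against stearic acid, elaidic acid had 9 of the 10 probes lower with a median of -0.60, against 0.07 for all probes. None passed, against 0.397% of all probes, and 5 of 10 members and 3330 of all probes were under an unadjusted p of 0.05. ATF5 differed by -1.09 ± 0.34 (adjusted p = 0.168), the brighter GDF15 probe by -1.14 ± 0.34 (adjusted p = 0.143), ATF4 by -0.89 ± 0.26 (adjusted p = 0.136) and PHGDH by -0.54 ± 0.22 (adjusted p = 0.287). Within series B, where both acids are present, the pair of elaidic acid samples lay below all 4 stearic acid samples for these same 4 probes, which is 4 of 10 against 12.3% of all probes. The blocked differences were -1.04 ± 0.43 for ATF5, -0.86 ± 0.40 for GDF15, -0.87 ± 0.32 for ATF4 and -0.43 ± 0.26 for PHGDH, and for TRIB3 0.00 (95% interval -0.67 to 0.67). With that block none was called, against 0.00436% of all probes, and 3 of 10 members and 1334 of all probes were under an unadjusted p of 0.05.

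Against stearic acid, oleic acid had 8 probes lower past the threshold, against 18.4% of all probes, and 1 higher, the brighter SHMT2 probe, against 21.0% of all probes. ATF5 fell by 2.26 ± 0.34, GDF15 by 2.18 ± 0.34, PSAT1 by 2.07 ± 0.37 and TRIB3 by 1.71 ± 0.26 in oleic acid (adjusted p = 0.00106 to 0.00217). ATF4 differed by -0.01 (95% interval -0.55 to 0.54). With the series block, which again runs through elaidic acid, none was called, against 0% of all probes, and 4 of 10 members and 1513 of all probes were under an unadjusted p of 0.05. The call of ASNS was lost without oleic acid replicate 4 or stearic acid replicate 4, and that of the brighter SHMT2 probe without oleic acid replicate 4 or stearic acid replicate 1.

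The wider pathway was read from gene lists, each gene by its brightest tested probe. The lists too were chosen with earlier results of these data known, so their counts are descriptive. Of 30 other ATF4 targets, 23 were higher in elaidic acid than in control with a median of 0.52. Of all probes 43.5% were higher, with a median of -0.10. None of the 30 was called, beside 0.305% of all probes called higher. The smallest p belonged to EIF4EBP1, an inhibitor of cap-dependent translation (0.78 ± 0.19, adjusted p = 0.110), CEBPG, a bZIP partner of ATF4 (1.78 ± 0.45, adjusted p = 0.115), and DDIT4, an mTORC1 inhibitor (0.76 ± 0.19, adjusted p = 0.116). With the series block the list median was 0.22, and these genes stood at 0.68 ± 0.23, 0.90 ± 0.40 and 0.60 ± 0.22. CHAC1, which degrades glutathione, and ATF3, a stress-induced bZIP factor, had -0.31 and -0.14 without passing, and 0.08 and -0.05 with the series block.

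Against control, 17 of these 30 targets were higher past the threshold in stearic acid, with a list median of 0.94, against 15.0% and a median of -0.18 for all probes. They were the aminoacyl-tRNA synthetase genes SARS1, AARS1, MARS1, CARS1, NARS1, WARS1 and GARS1, the transporter genes SLC7A1, SLC7A5, SLC1A4 and SLC1A5, and EIF4EBP1, CEBPG, CEBPB, VLDLR, SQSTM1 and PCK2. SARS1 rose by 1.31 ± 0.19, AARS1 by 1.98 ± 0.48 and CEBPB by 2.57 ± 0.64. The comparison of oleic with stearic acid shares the stearic acid samples with it, and had 20 called lower, among them also SLC38A2, VEGFA and CBS, against 18.4% of all probes, and 3 called higher, SLC6A9, ATF3 and CHAC1, against 21.0%. With the series block 0 of the 30 were called in either comparison, and the stearic acid median against control was 0.30.

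Upstream of ATF4, the list of eIF2 kinases, eIF2 subunits, its exchange factor and its phosphatase had 14 genes tested. Their median was 0.15 in elaidic acid against control, with -0.10 for all probes. None of the 14 was called, beside 0.305% of all probes called higher. Smallest p there had EIF2B2 at 1.69 ± 0.83, EIF2AK3 (the kinase PERK) at -0.66 ± 0.35 and EIF2S3 at 0.75 ± 0.44, with adjusted p of 0.365 to 0.432. In stearic acid EIF2B2, EIF2AK2, EIF2B1 and EIF2S3 were called higher than in control, 4 of 14 beside 15.0% of all probes. EIF2AK3 and the phosphatase subunits PPP1R15A and PPP1R15B were called lower, 3 of 14 beside 3393 of all 22939 probes. Oleic acid against stearic acid called the opposite signs for the same 7 genes, and EIF2S1 lower as well. There 5 of 14 were lower, beside 18.4% of all probes, and 3 of 14 higher, beside 21.0%. Under the series block 0 of the 14 were called in either comparison, and the list median in stearic acid against control was 0.29, against 0.43 without it. EIF2B2 had a series term of 3.24 ± 0.86 within elaidic acid, larger than its elaidic acid change.

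Around serine and glycine, 20 of 23 genes of folate and serine-glycine metabolism were higher in elaidic acid than in control, with a median of 0.33. Of all probes 43.5% were higher, with a median of -0.10. None of the 23 was called, beside 0.305% of all probes called higher. MTHFD2, which works next to SHMT2 in mitochondrial folate metabolism, had 1.53 ± 0.42 (adjusted p = 0.144), GCSH of the glycine cleavage system 1.61 ± 0.55, and MTHFD1 0.56 ± 0.23. The series block lowered them to 0.65 ± 0.34, 0.77 ± 0.57 and 0.43 ± 0.27, and the list median to 0.11. In stearic acid MTHFD1, MTHFD2, GCSH, ATIC and GLDC were called higher than in control, which is 5 of 23 beside 15.0% of all probes. In oleic acid these 5 and TYMS, MTRR, GGH and GART were called lower than in stearic acid, beside 18.4% of all probes. None was called in either comparison with the series block, and in stearic acid against control the list median was 0.07 with 13 of 23 higher, against 0.58 with 18 of 23 higher without it.

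Of 11 other amino acid synthesis enzymes, 9 were higher in elaidic acid than in control, with a median of 0.62 that became 0.08 with the series block. Without the block 43.5% of all probes were higher, with a median of -0.10. None of the 11 was called, beside 0.305% of all probes called higher. BCAT2, a branched-chain aminotransferase, had -0.995 ± 0.28, ALDH18A1 of proline synthesis 1.39 ± 0.45 and GLUL, glutamine synthetase, 0.62 ± 0.25, with adjusted p of 0.156 to 0.297. In stearic acid ALDH18A1, GLUL, GOT2, PYCR1, OAT and GPT2 were called higher than in control, 6 of 11 beside 15.0% of all probes. BCAT2 was called lower, as were 3393 of all 22939 probes. Oleic acid against stearic acid called the opposite signs for these 7, and GPT higher. There 6 of 11 were lower, beside 18.4% of all probes, and 2 of 11 higher, beside 21.0%. Once series was a block, 0 were called in either comparison, and the list median in stearic acid against control turned to -0.14 with 4 of 11 higher, against 1.05 with 9 of 11 higher without it. The 10 tested relatives of the members, such as other ATF, CREB, tribbles and sestrin genes, had a median of 0.01 in elaidic acid against control. Of these 5 of 10 were higher and 0 called, beside 0.305% of all probes called higher. CREB3 had 0.54 ± 0.37, TRIB2 -0.23 ± 0.18 and CREB3L4 -0.21 ± 0.22, and CREB1, SESN1 and CREB3L2 were called lower in oleic than in stearic acid, at -1.74, -1.80 and -2.23, beside 18.4% of all probes. None of these was called with the series block: CREB1 turned to 0.72, SESN1 was at -0.12 and CREB3L2 at -1.21, and CREB1 had a series term of 2.46 ± 0.48 (adjusted p = 0.0202). TRIB3 was called after elaidic acid where its relative TRIB2 was not, a difference between genes that was not tested.

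**Figure D4:**
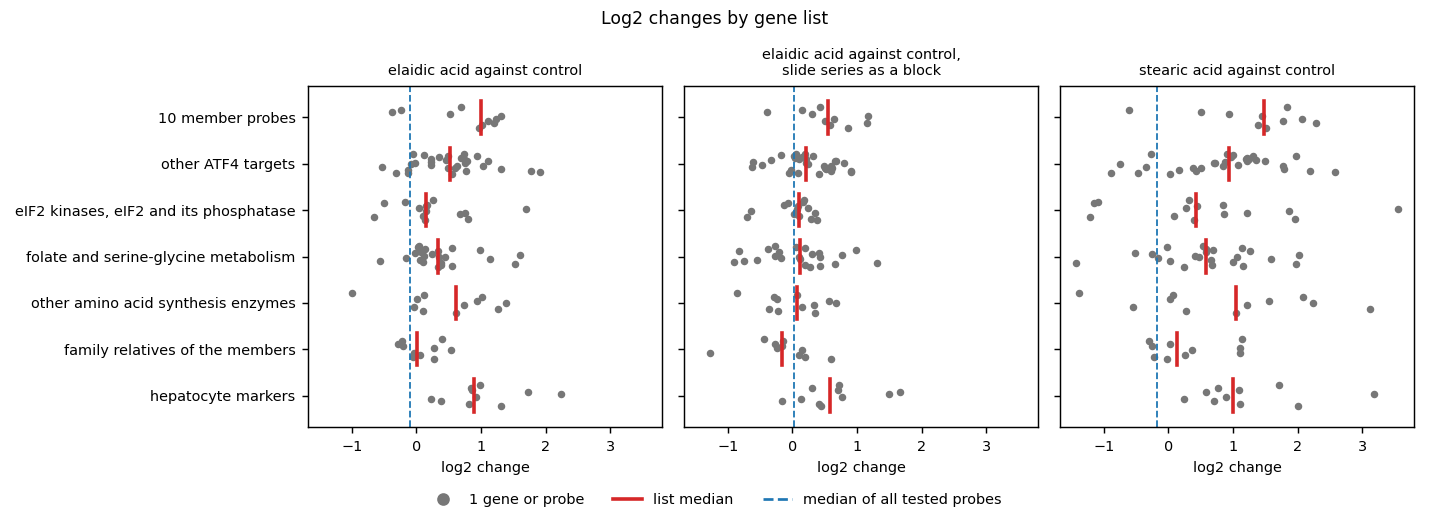
Log2 changes of single genes or probes (points) by list, with the list median in red and the median of all tested probes as a dashed line, in 3 comparisons. The 10 member probes have medians of 0.99, 0.54 and 1.48 from left to right, and the medians of other ATF4 targets are 0.52, 0.22 and 0.94.

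Genes outside the pathway also moved with these groups. The 10 hepatocyte markers on the array were all higher in elaidic acid than in control, with a median of 0.89. Of them 1 was called (TTR, 1.73 ± 0.28), beside 0.305% of all probes called higher. With the series block 9 of 10 were higher, with a median of 0.57. Against oleic acid, elaidic acid had all 10 higher with a median of 0.97, and TTR and APOH were called, beside 0.301% of all probes called higher. In stearic acid, where 8 member probes rose, all 10 were higher than in control, with a median of 0.99. Of these AFP, APOA1, APOH, TF, SERPINA1 and AHSG were called, 6 of 10 beside 15.0% of all probes called higher. The same 6 were called lower in oleic than in stearic acid, beside 18.4% of all probes. No marker was called in these comparisons with the series block, and in stearic acid against control 8 of 10 were higher with a median of 0.39. Of the 10 tested markers of other cell types, DES and KRT5 were called lower in stearic acid than in control, as were 3393 of all 22939 probes. DES, KRT5 and CDH5 were called higher in oleic than in stearic acid, beside 21.0% of all probes. None was called between groups with the series block, where VWF had a called series term of 5.80 ± 1.17. The summed intensity of the hepatocyte markers ran from 85142 to 238994 in elaidic acid, 25113 to 73632 in oleic acid, 175749 to 235832 in stearic acid and 23818 to 137659 in control, and that of markers of other cell types from 2247 to 2869, 1590 to 3077, 1865 to 2724 and 1622 to 3117 in the same groups. The part of the hepatocyte markers, and of array brightness, in the members' changes was not tested.

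The members' common pattern was described by the mean of their standardised levels, taken 1 probe per gene after removing each series' own mean. Over the 16 samples PHGDH followed it with r = 0.92, PSAT1 and GDF15 (brighter probe) with 0.85, TRIB3 with 0.81, ATF5 with 0.80, ASNS with 0.69 and SESN2 with 0.67, and ATF4 and the brighter SHMT2 probe with 0.04 and -0.36. These correlations include each gene's own share in the mean, and the samples share treatment groups and normalisation. The genes outside the list with the highest r were RANBP1 (0.95), DENND1A (0.92), RSL1D1 (0.92), RPS13 (0.92) and RALY (0.90). In elaidic acid against control they stood at 1.05, 1.11, 1.13, 0.75 and 1.37, none of which passed, and at 0.92, 0.96, 0.92, 0.53 and 1.08 with the series block.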

How the data were processed

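HepG2 RNA was measured on 1-colour Cy5 arrays in 16 samples, 4 biological replicates in each of 4 groups, per the labels. The authors deposited linear intensity, 1 value per probe and sample, and every sample holds some values of 0 or less. The labels name 2 technical replicates per sample. How the authors combined them and which background correction they used is not given in the sources used here. Gene names come from the platform's probe table: 17397 probes have 1 symbol and 13571 have none.

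The deposited intensities were turned to log2 here, 8029 probes (25.9%) that were not above 0 in all samples were dropped, and 22939 were quantile normalised. Groups follow the sample labels. All 6 comparisons between groups were fitted on all 16 samples with limma 3.58.1 in R 4.3.3 (lmFit, eBayes, two-sided). Benjamini-Hochberg adjustment ran over all 22939 probes of a comparison. Errors of changes are its standard errors, with 95% intervals. The script was tested on simulated data. Tables and promoter searches used Python 3.11.15 and figures matplotlib 3.10.9.

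Every member probe is named. In the 5 pathway lists the genes called in any comparison between groups are named, and up to 3 of smallest p in elaidic acid against control. A list gene stands by its probe of highest mean over all samples. Likeness was Pearson's r, for the 5 non-members of highest r. Members and lists were chosen with earlier results of these data known. Alternatives were no normalisation, median scaling, an offset of 50 with all probes, the dimmest 50% of probes left out, slide series, replicate number or both as blocks, only the groups compared, and each sample left out in turn. Leaving out the 2 dimmest samples, each slide series normalised alone, the GDF15 offset fit with the series block and the series term itself were chosen after seeing the data. So were the limits of 10 and 500 used for the dimmer GDF15 probe. Same-numbered samples did not deviate together in every pair, so the replicate numbers were not taken as pairs.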

Additional observations from a re-analysis of the deposited data

Results flagged for a closer look

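In 3 of the 44 groups of 4 samples formed by probe and treatment, 1 sample stood far from the other 3 by Dixon's criterion. Chance alone flags about 1 in 20 groups. TRIB3 in stearic acid replicate 2 was the lowest of its group at a log2 level of 11.92, with the others at 12.14 to 12.18. TRIB3 in control replicate 1 was the lowest at 9.97, with the others at 10.85 to 10.91. PSAT1 in control replicate 1 was the lowest at 9.63, with the others at 10.53 to 10.65. Control replicate 1 was the dimmest array, with a median intensity of 19.95. Without it, TRIB3 after elaidic acid against control was 1.08 with an adjusted p of 0.110.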

How the results depend on the processing

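The replicate numbers were not taken as pairs, a choice that does not show same-numbered samples to be unrelated. Deviations from group means, with slide series not removed, were correlated between same-numbered samples over the 6 comparisons. The correlations ran from -0.46 to 0.36, and no comparison had every pair over 0.1. In elaidic acid against control they ran from -0.46 to -0.11, and in elaidic against oleic acid they were 0.21, -0.19, 0.11 and 0.36. With the replicate block, 0 members were called in elaidic acid against control and against oleic acid, 0 in oleic acid against control and in elaidic against stearic acid, 8 in stearic acid against control and 9 in oleic against stearic acid. In the main fit 8 and 9 were also called in the last 2, beside 6825 and 9057 of all 22939 probes. Shares of all probes under the alternatives are not given in this section, so its counts show only how member calls depend on the processing. Member calls in elaidic acid against control, and against oleic acid, numbered 0 and 0 without normalisation, with the slide series block, with both blocks, with only the 2 groups compared and with series A alone, and 2 and 2 with all probes and an offset of 50 and with the dimmest 50% of probes left out. Without the 2 dimmest samples they numbered 0 and 1, and on leaving out single samples 0 to 0 and 0 to 2. In elaidic against stearic acid 1 was called with the offset. In stearic acid against control and in oleic against stearic acid 0 were called with the slide series block, alone or with the replicate block. Among the changes of single probes, 918 alternative values kept their sign and their side of the threshold, 71 kept the sign and lost the call, 10 gained a call and 49 turned sign. The turned values were mostly near 0. For the brighter SHMT2 probe they were 0.11 without normalisation, 0.15 with the series block, 0.16 with both blocks and 0.14 in series A alone for elaidic acid against control; 0.21, 0.16 and 0.19 without normalisation, with the series block and with both blocks for stearic acid against control; -0.091, -0.013, -0.028 and, in series B alone, -0.011 for elaidic against stearic acid; and -0.070 without normalisation for oleic against stearic acid. In oleic acid against control, no normalisation turned ATF5 to -0.13, ASNS to -0.10 and PHGDH to -0.060, median scaling turned ATF5 to -0.029, the offset turned SESN2 to 0.00017, and leaving out the 2 dimmest samples turned the dimmer SHMT2 probe to 0.17 and SESN2 to 0.068. In elaidic against stearic acid TRIB3 turned to 0.0022 and SESN2 to 0.072 with the series block, and to 0.00052 and 0.075 in series B alone. In oleic against stearic acid ATF4 turned to 0.028 with the series block and 0.15 with both blocks. Single samples left out gave, in oleic acid against control, -0.17 to 0.19 for ASNS, -0.21 to 0.39 for ATF5, -0.16 to 0.14 for PHGDH, -0.24 to 0.22 for PSAT1, -0.28 to 0.29 for SESN2 and -0.43 to 0.29 for the dimmer SHMT2 probe, and -0.16 to 0.15 for ATF4 in oleic against stearic acid. The cause of these turns was not tested. Without normalisation the median of all probes was 0.01 in elaidic acid against control and 0.26 in stearic acid against control. Signal was low for ATF5 and the dimmer SHMT2 probe, at intensities of 8.35 to 199.4 and 10.6 to 237.7. The effect of low signal on their changes was not tested.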
